A study of Homo sapiens with 15 samples.

Results

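The genes described here are 53 genes of DNA replication and mitosis, given as a list of symbols, with no threshold on their values. The first 24, from MCM2 to E2F1 in the order of the list, act at the G1/S transition or in S phase, and the other 29, from MKI67 to PTTG1, act in G2 and mitosis. All 53 were found once among the 25737 entries of the deposited table, and all were among the 12870 tested. The libraries came from U87MG, an established human glioblastoma line, 24 h after lentivirus was added. The 5 groups of 3 libraries each carried control (GFP) virus or virus for overexpression of ID1, ID2, ID3 or ID4. The line and the culture medium were the same in all groups, and the promoter of the vectors is not given in the sources used here. Sequencing was by the QuantSeq method, which reads the 3′ end of polyadenylated transcripts, so that a value counts reads per gene and is not scaled to gene length.

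Cells copy their DNA in S phase and divide it in mitosis, and most of the proteins needed are made in waves. E2F factors switch on S-phase genes once cyclin-dependent kinases have released them from the retinoblastoma (RB) family of proteins. Later, B-MYB and FOXM1, bound through the MuvB complex to a promoter element called the CHR (cell cycle genes homology region), switch on the genes of G2 and mitosis, while the related DREAM complex keeps both waves silent in resting cells. The ID proteins are helix-loop-helix factors without a DNA-binding part, which hold E proteins away from their sites, the E-boxes, and are known for promoting proliferation in many cell types. MKI67 (Ki-67) is routinely stained in glioma sections as a sign of dividing cells.

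The promoters of both lists show the elements that the textbook account names, and a set of 4 from each list is printed because these genes carry the changes described further on. For 44 of the 53 members, 21 of the S-phase and 23 of the G2/M list, RefSeq (GRCh38.p14) gave a window from 250 bases before to 50 bases after the start of transcription. Windows were searched on both strands for the E2F site (TTGGCGC or TTCGCGC or TTCCCGC), the CHR (TTTGAA or TTCGAA), the CCAAT box, which NF-Y binds, and the E-box (CANNTG). An E2F match was found in 18 of 21 S-phase windows (85.7%) and in 6 of 23 G2/M windows (26.1%), against 13.1% of the windows of all 27305 genes. A CHR match was found in 2 of 21 S-phase windows (9.52%) and in 17 of 23 G2/M windows (73.9%), against 19.5% of all windows. The CCAAT box was in 66.7% and 91.3% of the S-phase and G2/M windows, against 39.7% of all. E-box letters, which are short and common, were in 66.7%, 65.2% and 73.1%. Such a match is a description of letters and not a tested binding site. The stretches below are the 120 bases just before the start, 5′ to 3′ on the strand of the gene, with matches within the stretch in capitals. For the S-phase list these are E2F matches, in RFC4 (chr3:186806483-186806602, minus strand), a subunit of the clamp loader, in MCM6 (chr2:135876444-135876563, minus strand), a subunit of the replicative helicase, in GINS2 (chr16:85688955-85689074, minus strand), a helicase partner, and in CDT1 (chr16:88803669-88803788, plus strand), which loads the helicase. The match began 10 bases before the start in RFC4, 31 in GINS2, 35 and 23 in CDT1, and 89 and 86 in MCM6, where 2 matches overlapped.
RFC4: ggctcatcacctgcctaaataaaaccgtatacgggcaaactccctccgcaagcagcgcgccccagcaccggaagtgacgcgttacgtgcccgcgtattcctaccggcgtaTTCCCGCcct
MCM6: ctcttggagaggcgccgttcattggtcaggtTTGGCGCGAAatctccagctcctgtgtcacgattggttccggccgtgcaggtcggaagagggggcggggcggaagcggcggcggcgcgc
GINS2: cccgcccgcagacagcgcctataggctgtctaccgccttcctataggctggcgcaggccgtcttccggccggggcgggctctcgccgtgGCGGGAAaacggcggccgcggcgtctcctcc
CDT1: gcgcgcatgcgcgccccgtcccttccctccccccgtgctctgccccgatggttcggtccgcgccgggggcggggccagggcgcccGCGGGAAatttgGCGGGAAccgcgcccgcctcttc
For the G2/M list the capitals are CHR matches, in KIF11 (chr10:92593010-92593129, plus strand), a spindle motor, in MKI67 (chr10:128126424-128126543, minus strand), in BUB1B (chr15:40160949-40161068, plus strand), a spindle checkpoint kinase, and in PRC1 (chr15:90994536-90994655, minus strand), which bundles microtubules of the central spindle. The first 2 of these genes were lower and the other 2 higher than in GFP in most comparisons. KIF11 and MKI67 lie on chromosome 10 and BUB1B and PRC1 on chromosome 15, whose genes as a whole shifted down and up, as described further on. The match began 28 bases before the start in KIF11, 47 and 29 in MKI67, 23 in BUB1B and 20 in PRC1.
KIF11: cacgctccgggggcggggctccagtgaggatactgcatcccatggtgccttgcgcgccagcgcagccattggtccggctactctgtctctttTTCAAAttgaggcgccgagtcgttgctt
MKI67: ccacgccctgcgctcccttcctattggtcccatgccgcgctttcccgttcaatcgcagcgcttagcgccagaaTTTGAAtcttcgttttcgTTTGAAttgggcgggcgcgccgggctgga
BUB1B: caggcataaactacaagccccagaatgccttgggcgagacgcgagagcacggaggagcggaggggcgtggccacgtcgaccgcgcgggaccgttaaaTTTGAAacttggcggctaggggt
PRC1: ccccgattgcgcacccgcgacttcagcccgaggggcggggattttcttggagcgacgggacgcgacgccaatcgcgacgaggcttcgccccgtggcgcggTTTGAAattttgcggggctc

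**Figure D1:**
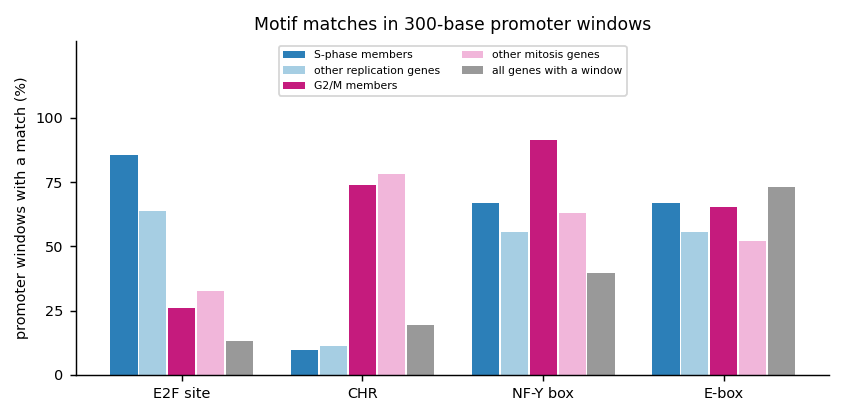
Share of 300-base promoter windows (y axis, %) that hold each motif (x axis), for both member lists, for 2 lists of other replication and mitosis genes and for all genes. E2F matches are most frequent in the S-phase list (85.7%) and CHR matches in both mitosis lists (73.9% and 78.3%), while E-box letters are no more frequent in any list than in all genes (73.1%).

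Library totals ranged from 11089044 to 15148979 counts, and the members had between 35 and 29214 counts in a library, far above a floor of 3 counts (0.198 to 0.271 CPM, counts scaled to library size). Such floors cover counting error only. The labels do not say that libraries of a group were separate cultures, and p-values then measure only the spread between these libraries. The labelled gene was raised in 2 of the 4 ID groups. ID4 had 0 to 2 counts in GFP libraries and 2479 to 3110 in those labelled ID4, and ID3 rose from 214 to 230 CPM in GFP to 301 to 323 CPM in those labelled ID3, but it was at 268 to 319 CPM in those labelled ID2 as well. ID1, in contrast, was at 337 to 350 CPM in GFP libraries and at 247 to 254 CPM in the libraries labelled ID1, and ID2 was at 83.1 to 88.7 CPM in GFP and 43.7 to 46.2 CPM in the libraries labelled ID2. These falls were not particular to the label. ID1 was at 260 to 299 CPM in the libraries labelled ID4, while those labelled ID2 and ID3 overlapped GFP. ID2 was at 31.6 to 36.8 CPM in those labelled ID1, 45.6 to 48.7 in ID3 and 34.8 to 37.7 in ID4. Reads were taken near the 3′ end, and whether the vectors carried the native 3′ ends is not given in the sources used here, so that these values may leave out transcripts of the vectors. The groups are therefore called by their labels, and a direction drawn from ID1 or ID2 is that of the label. VIM (3481 to 4765 CPM) and CD44 (493 to 616 CPM) marked the line, whereas the glial and stem cell markers GFAP, S100B and SOX2 had at most 4 counts. Immune, endothelial and epithelial markers summed to at most 6.36, 1.97 and 1.27 CPM in a library, with KRT5 and KRT14 at 0. The 5 neuron markers summed to 22.6 to 26.1 CPM in GFP, 31.2 to 36.3 in ID1, 42.2 to 51.6 in ID2, 32.3 to 39.6 in ID3 and 27.1 to 29.9 in ID4. Nearly all of this was SNAP25 and GAD1, the other 3 having at most 5 counts, and their part in the changes described here was not tested. The last 500 bases of FEN1, GINS2, TYMS, RFC4, PRIM1, CCNE2, CCNA2, PLK1, BUB1B, KIF20A and FOXM1 overlap another gene in the annotation. The overlapping gene is on the same strand for FEN1, PRIM1 and BUB1B, where strand could not separate the reads, and on the opposite strand for the other 8. Whether reads were counted by strand is not given in the sources used here, and the values of all 11 are uncertain.

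The median S-phase gene was lower in every ID group than in GFP. Relative to its mean over all libraries, the median S-phase member stood at 0.17 ± 0.02 (log2, SD, n = 3) in GFP, 0.03 ± 0.03 in ID1, 0.01 ± 0.02 in ID4, -0.04 ± 0.04 in ID3 and -0.11 ± 0.04 in ID2. The 3 GFP libraries, at 0.16 to 0.19, lay above all 12 ID libraries, at -0.15 to 0.06. The group mean was highest in GFP for 19 of the 24 S-phase members and for 15 of the 29 G2/M members, whereas this was so for 26.9% of all tested genes. For the G2/M list the order was different, with GFP (0.09 ± 0.02) followed by ID4 (0.07 ± 0.03), ID1 (0.04 ± 0.03), ID3 (-0.07 ± 0.03) and ID2 (-0.09 ± 0.04), and the libraries of GFP, ID1 and ID4 overlapped. Within a library, the S-phase median exceeded the G2/M median by 0.08 to 0.09 in GFP, by 0.02 to 0.04 in ID3, and by -0.10 to 0.01 in ID1, ID2 and ID4. In bulk RNA, fewer cells in a phase of the cycle and less RNA of these genes per cell cannot be told apart.

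**Figure D2:**
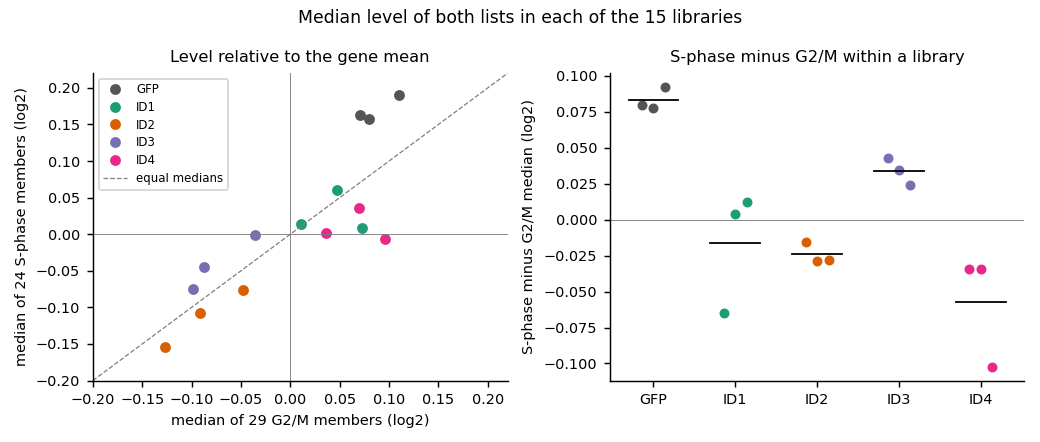
Left, the median S-phase member (y axis) against the median G2/M member (x axis) in each of the 15 libraries, both in log2 relative to the mean of each gene over all libraries. Right, the S-phase minus the G2/M median of each library (points) with the group mean (bar), which is 0.08 to 0.09 in GFP libraries and at most 0.04 in every other library.

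All genes were tested together by edgeR's quasi-likelihood test, with p-values adjusted over the 12870 tested genes by the Benjamini-Hochberg method and a threshold of 0.05. Of the 24 S-phase members, 6 were lowered and 0 raised in ID1 against GFP, at a median log2 fold change of -0.14, while 9.73% of all tested genes were lowered and 12.4% raised. In ID2, 15 were lowered and 0 raised (median -0.27), against 16.7% and 18.5% of all. In ID3, 13 were lowered and 0 raised (median -0.22), against 13.5% and 15.1%. In ID4, 7 were lowered and 1 raised (median -0.15), against 9.51% and 12.1%, and the 8 calls became 4 without GFP replicate 1 and 5 without ID4 replicate 1. Of the 29 G2/M members, 6 were lowered and 4 raised in ID1, 13 and 1 in ID2, 14 and 2 in ID3, and 5 and 5 in ID4, with medians of -0.05, -0.16, -0.18 and -0.09. Leaving out 1 library moved the ID4 median to as little as -0.038 (without ID4 replicate 3) and the ID1 median to as much as -0.078 (without GFP replicate 2). The median of all tested genes lay within 0.01 of 0 in each comparison. The 4 comparisons share the GFP libraries, so that a high or low GFP value moves all of them. For ID3 and ID4, a fit without the libraries labelled ID1 and ID2 gave the same numbers of calls.

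**Figure D3:**
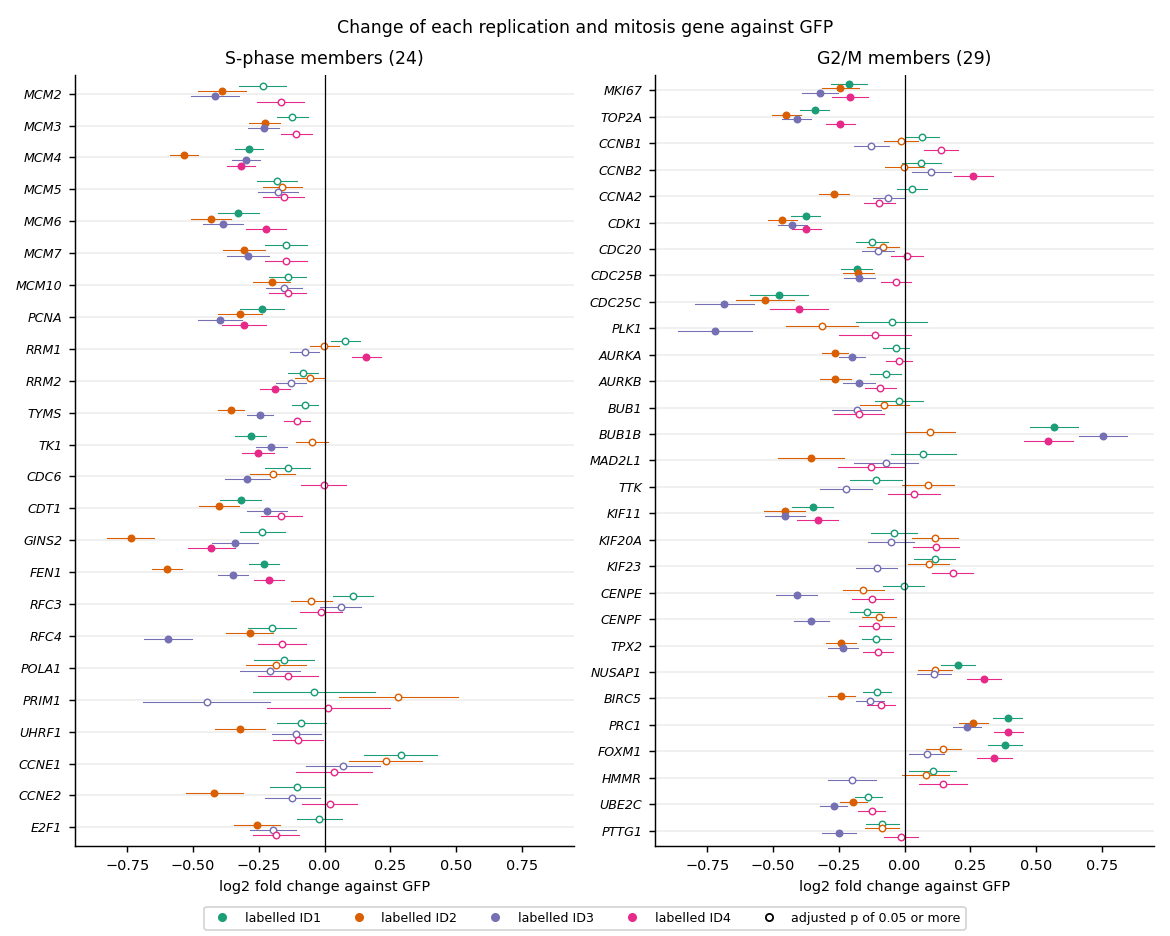
Log2 fold change against GFP (x axis) of each of the 53 members (y axis), with bars of 1 standard error. Filled points passed an adjusted p of 0.05 (15 of 24 S-phase members in ID2, at most 16 of 29 G2/M members), and the points right of 0 that are filled belong to RRM1, CCNB2, BUB1B, NUSAP1, PRC1 and FOXM1.

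The MCM2 to MCM7 proteins form the ring of the replicative helicase. MCM4 had 301, 290 and 270 CPM in the 3 GFP libraries, 234 to 245 in ID1, 191 to 204 in ID2, 222 to 255 in ID3 and 225 to 235 in ID4. No ID library reached the lowest GFP library, and ID2 lay below all other groups. The log2 fold change was -0.29 (SE 0.05, adjusted p = 0.000407 from edgeR) in ID1, -0.53 (SE 0.05, adjusted p = 7.37e-08) in ID2, -0.30 (SE 0.05, adjusted p = 0.000224) in ID3 and -0.32 (SE 0.05, adjusted p = 0.000149) in ID4. MCM6 was lowered in all 4 groups too, with 72.8, 63.8 and 65.2 CPM in GFP, 52.5 to 57.4 in ID1, 43.1 to 54.2 in ID2, 50.7 to 53.4 in ID3 and 54.5 to 63.0 in ID4. Its changes were -0.33, -0.43, -0.39 and -0.22 (SE 0.08 each), and only the last call, at an adjusted p of 0.0417 in edgeR, was lost without GFP replicate 1 or 3 or ID4 replicate 1 or 3 (adjusted p up to 0.175). MCM2 and MCM3 were lowered in ID2 (-0.39 and -0.23) and ID3 (-0.42 and -0.23). MCM7 was lowered in the same groups (-0.31 and -0.29), in ID3 not without ID3 replicate 3 (adjusted p = 0.0550 in edgeR). MCM5 passed in 0 comparisons, although its fold changes were all negative, from -0.18 to -0.16.

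Loading the helicase requires CDC6 and CDT1, and the GINS complex then helps to activate it. CDT1 had 50.1 to 51.2 CPM in GFP, 38.4 to 42.6 in ID1, 35.9 to 40.7 in ID2, 41.4 to 46.3 in ID3 and 41.9 to 49.9 in ID4, so that every ID library was below every GFP library. The change was -0.32 in ID1 (SE 0.08, adjusted p = 0.00412 from edgeR) and -0.40 in ID2 (SE 0.08, adjusted p = 0.000305). That of -0.22 in ID3 passed (adjusted p = 0.0357), but not without GFP replicate 1, 2 or 3 or ID3 replicate 1 or 3 (adjusted p up to 0.127), and that of -0.16 in ID4 did not pass, except without ID4 replicate 3 (-0.24, adjusted p = 0.0420). GINS2 (GRCh37, chromosome 16 from 85709804 to 85723679) showed the largest fall of any S-phase member, from 31.2 to 37.5 CPM in GFP to 18.9 to 21.7 in ID2, with 28.8 to 31.99 in ID1, 26.04 to 30.7 in ID3 and 25.6 to 26.6 in ID4. Libraries of ID1 overlapped GFP, and those of the other 3 groups did not. The log2 fold change in ID2 was -0.74 (SE 0.09, adjusted p = 1.11e-06 from edgeR), and in ID3 and ID4 it was -0.34 and -0.43. That of -0.24 in ID1 did not pass, except without GFP replicate 3 (-0.31, adjusted p = 0.0202 in edgeR) and in a fit on these groups alone (adjusted p = 0.0438). CDC6 was lowered in ID3 (-0.29) and MCM10, an activator of the helicase, in ID2 (-0.20). Both calls depended on single libraries, CDC6 on GFP replicate 3 and ID3 replicates 1 and 3 (adjusted p up to 0.0671 without 1 of them in edgeR), and MCM10 on GFP replicates 2 and 3 and ID2 replicates 2 and 3 (up to 0.116).

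At the fork, PCNA is the sliding clamp, RFC proteins load it and FEN1 trims the Okazaki fragments. FEN1 (GRCh37, chromosome 11 from 61560383 to 61564710) had 317, 323 and 337 CPM in GFP, 267 to 290 in ID1, 202 to 219 in ID2, 239 to 270 in ID3 and 277 to 287 in ID4. Every ID library was below every GFP library, and the ID2 libraries were below all the others. The log2 fold changes were -0.23, -0.60, -0.35 and -0.21 in ID1 to ID4 (SE 0.06 each, adjusted p = 0.00502, 3.32e-08, 7.20e-05 and 0.00992 from edgeR). PCNA fell from 79.8 to 90.9 CPM in GFP to 69.5 to 78.0 in ID1, 58.9 to 73.1 in ID2, 60.4 to 70.5 in ID3 and 62.4 to 78.4 in ID4. The changes were -0.24, -0.32, -0.40 and -0.31 (SE 0.08 each). The ID1 call (adjusted p = 0.0436 in edgeR) was lost without GFP replicate 1 or 3 or ID1 replicate 1 or 2 (adjusted p up to 0.159), and the ID4 call without GFP replicate 1 or ID4 replicate 3 (up to 0.0784). RFC4 had 88.8 to 109 CPM in GFP and 64.6 to 70.8 in ID3, with 84.7 to 90.6 in ID1, 69.0 to 93.4 in ID2 and 85.0 to 99.6 in ID4. Of the 4 groups, ID3 had no overlap with GFP, at -0.60 (SE 0.09, adjusted p = 4.33e-05 from edgeR). The ID2 change of -0.29 (adjusted p = 0.0180 in edgeR) was lost without GFP replicate 2 or 3 or ID2 replicate 3 (up to 0.102). That of -0.20 in ID1 did not pass, except without GFP replicate 1 (-0.29, adjusted p = 0.0317 in edgeR), without the filter on low genes (0.0329) and in a fit on these groups alone (0.0391). RFC3, another loader subunit, and the polymerase α and primase genes POLA1 and PRIM1 passed in 0 comparisons with GFP, where RFC3 changed by -0.05 to 0.11, POLA1 by -0.21 to -0.14 and PRIM1 by -0.45 to 0.28. The standard error of PRIM1 was 0.23 to 0.24.

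Among the enzymes that supply nucleotides, TYMS, thymidylate synthase, had 469 to 499 CPM in GFP, 442 to 495 in ID1, 359 to 389 in ID2, 409 to 422 in ID3 and 434 to 465 in ID4. The falls in ID2 (-0.36, SE 0.05, adjusted p = 6.05e-06 from edgeR) and ID3 (-0.25, SE 0.05, adjusted p = 0.000596) passed. ID1 overlapped GFP (-0.07), and ID4 lay just below it without passing (-0.11). TK1, thymidine kinase, was lowered in ID1 (-0.28), ID3 (-0.20) and ID4 (-0.25) and at -0.05 in ID2. Its ID3 call was lost without GFP replicate 1 or ID3 replicate 2 or 3 (adjusted p up to 0.0752 in edgeR). RRM1, the large subunit of ribonucleotide reductase, was the only S-phase member raised, by 0.16 in ID4. The small subunit RRM2 was lowered in the same libraries (-0.19). Each of these 2 calls was lost without GFP replicate 1 or 2 or ID4 replicate 1 or 2, and that of RRM1 also without ID4 replicate 3 (adjusted p up to 0.148 for RRM1 and 0.101 for RRM2 in edgeR).

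Of the regulators of S-phase entry, E2F1 had 94.1 to 117 CPM in GFP, 91.0 to 114 in ID1, 82.6 to 92.1 in ID2, 87.3 to 98.3 in ID3 and 87.6 to 102 in ID4. It was lowered in ID2 (-0.26, SE 0.09, adjusted p = 0.0260 from edgeR), though not without GFP replicate 3 or ID2 replicate 2 (adjusted p up to 0.167). In ID3 (-0.20) it did not pass, except without GFP replicate 2 (-0.26, adjusted p = 0.0480 in edgeR) and without the filter on low genes (0.0339). CCNE1, a cyclin E, had 9.04 to 11.5 CPM in GFP, 11.5 to 13.7 in ID1, 10.3 to 15.03 in ID2, 9.84 to 12.2 in ID3 and 10.2 to 11.1 in ID4, and its changes of 0.29, 0.23, 0.07 and 0.03 did not pass. The other cyclin E, CCNE2, was lowered in ID2 (-0.42, SE 0.11, adjusted p = 0.00379 from edgeR), from 20.2 ± 1.43 to 14.97 ± 2.44 CPM (SD, n = 3 each). UHRF1, which helps to maintain DNA methylation on the new strand, was lowered in ID2 (-0.32), a call lost without GFP replicate 1 or ID2 replicate 3 (adjusted p up to 0.0542 in edgeR). Thus 4 S-phase members, MCM4, MCM6, PCNA and FEN1, were lowered in all 4 groups, 3 (TK1, CDT1 and GINS2) in 3 groups, and 6 in none. The 4 comparisons share GFP, and of all tested genes 4.16% were lowered in all 4, 3.44% in 3 and 75.5% in none.

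**Figure D4:**
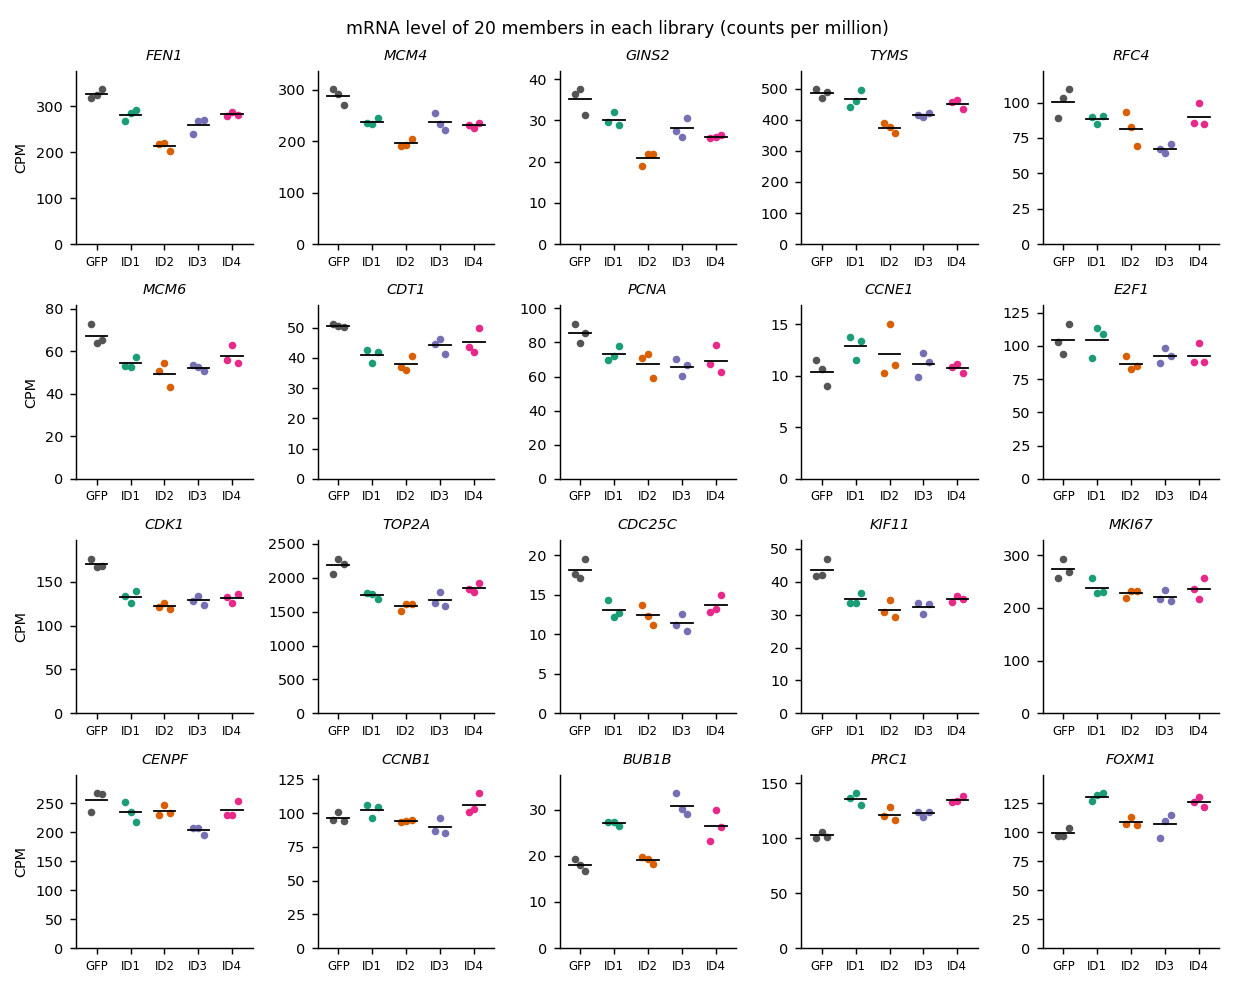
CPM (y axis, from 0) of 20 members in each library (points) with the group mean (bar) over the 5 groups (x axis). FEN1, MCM4, MCM6, CDT1, PCNA, CDK1, TOP2A, CDC25C, KIF11 and MKI67 are below GFP in every ID library, and PRC1 is above GFP in every one. Most of the 20 were chosen for a small p against GFP.

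The G2/M list held both falls and rises. CDK1, the kinase that drives entry into mitosis (GRCh37, chromosome 10 from 62538089 to 62554610), had 176, 167 and 168 CPM in GFP, 125 to 139 in ID1, 118 to 126 in ID2, 123 to 134 in ID3 and 126 to 136 in ID4. Every ID library was below every GFP library. The log2 fold changes were -0.38, -0.47, -0.43 and -0.37 (adjusted p = 2.40e-05, 7.40e-07, 3.92e-06 and 2.88e-05 from edgeR, n = 3 libraries each). CDC25C, the phosphatase that activates CDK1, had 17.1 to 19.6 CPM in GFP, 12.2 to 14.3 in ID1, 11.1 to 13.7 in ID2, 10.5 to 12.5 in ID3 and 12.8 to 14.98 in ID4, again with no overlap. It changed by -0.48, -0.53, -0.69 and -0.40 (SE 0.11 each), and the ID4 call (adjusted p = 0.0116 in edgeR) was lost without GFP replicate 3 or ID4 replicate 1 (up to 0.0595). The related CDC25B was lowered in ID1, ID2 and ID3 (-0.18, -0.18 and -0.17). Each of these calls was lost without GFP replicate 2 or 3 and without 2 of the 3 libraries of the ID group (replicates 2 and 3 of ID1, 1 and 2 of ID2, 1 and 3 of ID3), with adjusted p up to 0.107, 0.129 and 0.0956 in edgeR. Of the cyclins that partner CDK1, CCNB1 had 93.8 to 100.4 CPM in GFP, 96.0 to 106 in ID1, 93.4 to 95.2 in ID2, 85.6 to 96.4 in ID3 and 101 to 115 in ID4, and its changes of 0.07, -0.01, -0.13 and 0.14 did not pass. CCNB2 was raised in ID4 (0.26, SE 0.07, adjusted p = 0.0135 from edgeR), but not without GFP replicate 2 or 3 or ID4 replicate 2 (adjusted p up to 0.0714), and CCNA2, cyclin A, was lowered in ID2 (-0.27, SE 0.06, adjusted p = 0.000920).

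TOP2A, the topoisomerase that untangles sister chromatids, had 2058, 2282 and 2207 CPM in GFP, 1691 to 1780 in ID1, 1515 to 1619 in ID2, 1584 to 1790 in ID3 and 1782 to 1918 in ID4. No ID library reached GFP, and the changes were -0.34, -0.45, -0.41 and -0.24 (SE 0.06 each, adjusted p = 8.21e-05, 1.25e-06, 7.13e-06 and 0.00240 from edgeR). MKI67 had 257, 293 and 267 CPM in GFP, 228 to 256 in ID1, 219 to 232 in ID2, 212 to 234 in ID3 and 216 to 256 in ID4. Its changes of -0.21, -0.24, -0.32 and -0.21 (SE 0.07 each) passed in all 4 groups. Without GFP replicate 2, the highest GFP library, the calls in ID1, ID2 and ID4 were lost, as they were in ID1 without ID1 replicate 2 or 3 and in ID4 without ID4 replicate 1 or 2. Over these omissions the adjusted p reached 0.178, 0.0642 and 0.190 in edgeR. The ID3 call was kept.

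Spindle motors and kinetochore genes differed among themselves. KIF11 had 41.7 to 47.0 CPM in GFP, 33.4 to 36.7 in ID1, 29.3 to 34.3 in ID2, 30.1 to 33.6 in ID3 and 34.0 to 35.6 in ID4, without overlap, and changed by -0.35, -0.46, -0.45 and -0.33 (SE 0.08 each, adjusted p = 0.00184, 7.42e-05, 0.000116 and 0.00337 from edgeR). The other motors, KIF20A and KIF23, changed by -0.05 to 0.12 and by -0.11 to 0.18 and passed in 0 comparisons with GFP. CENPF, a kinetochore protein of the G2 and M phases, had 235 to 267 CPM in GFP and 194 to 208 in ID3, with 217 to 252 in ID1, 229 to 248 in ID2 and 229 to 254 in ID4. It was lowered in ID3 (-0.35, SE 0.07, adjusted p = 0.000296 from edgeR) and at -0.14, -0.10 and -0.11, without passing, in ID1, ID2 and ID4, although the ID1 change passed without GFP replicate 1 (-0.21, adjusted p = 0.0285 in edgeR). A call in ID3 and in no other comparison with GFP was also made for the kinetochore motor CENPE (-0.41, SE 0.08, adjusted p = 0.000417) and for PLK1, a kinase of spindle assembly, which fell from 85.4 ± 4.05 to 52.6 ± 8.77 CPM (SD, n = 3 each; -0.72, SE 0.14, adjusted p = 0.000453 from edgeR). In ID2, PLK1 was at 79.9, 77.9 and 46.4 CPM, the last at the level of ID3, and ID2 minus ID3 (0.41) did not pass (adjusted p = 0.0537 in edgeR). PTTG1, the securin that guards sister chromatids, was called in ID3 as well (-0.25). The aurora kinases AURKA and AURKB were lowered in ID2 (-0.26 each) and ID3 (-0.20 and -0.17), the last call being lost without GFP replicate 1 or 2 or ID3 replicate 1 or 3 (adjusted p up to 0.123 in edgeR). TPX2, which activates AURKA, and UBE2C, which feeds the anaphase-promoting complex, were lowered in the same 2 groups, by -0.24 and -0.23 and by -0.19 and -0.27. BIRC5 (survivin) and the checkpoint gene MAD2L1 were called in ID2 (-0.24 and -0.35), MAD2L1 not without GFP replicate 1 or ID2 replicate 3 (adjusted p up to 0.246 in edgeR). CDC20, BUB1, TTK and HMMR passed in 0 comparisons with GFP, at changes of -0.22 to 0.15.

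Rises were fewer, and BUB1B showed the largest. This gene (GRCh37, chromosome 15 from 40453224 to 40513324) had 16.7 to 19.3 CPM in GFP and 18.2 to 19.8 in ID2, but 26.5 to 27.4 in ID1, 29.02 to 33.6 in ID3 and 23.2 to 29.9 in ID4. GFP and ID2 overlapped, and each library of ID1, ID3 and ID4 above them. The log2 fold changes were 0.57, 0.76 and 0.55 in ID1, ID3 and ID4 (SE 0.09 each, adjusted p = 8.71e-05, 1.68e-06 and 0.000166 from edgeR), and 0.10 in ID2. Set against ID2 directly, ID1 was 0.47 higher (adjusted p = 0.000785), while ID2 minus ID3 was -0.66 (adjusted p = 2.52e-05) and ID2 minus ID4 was -0.45 (adjusted p = 0.00133). PRC1 had 100.3 to 106 CPM in GFP, 131 to 141 in ID1, 116 to 128 in ID2, 119 to 124 in ID3 and 133 to 139 in ID4. It was raised in all 4 groups, by 0.39, 0.26, 0.24 and 0.39 (SE 0.05 each, adjusted p = 1.17e-05, 0.000625, 0.00212 and 1.23e-05 from edgeR). FOXM1, which drives transcription of G2/M genes, had 97.0 to 104 CPM in GFP, 127 to 134 in ID1, 106 to 113 in ID2, 95.4 to 115 in ID3 and 122 to 130 in ID4. It was raised in ID1 (0.38, SE 0.07, adjusted p = 0.000176 from edgeR) and ID4 (0.34, SE 0.07, adjusted p = 0.000629). NUSAP1, a microtubule-binding spindle protein, was raised in ID4 (0.30) and ID1 (0.20), the latter not without GFP replicate 1 or 3 or ID1 replicate 1 or 3 (adjusted p up to 0.137 in edgeR).

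All 5 G2/M members that rose lie on chromosome 15 (CCNB2, BUB1B, NUSAP1 and PRC1) or chromosome 12 (FOXM1), whose genes were higher in the ID groups as a whole. The median change of the 383 tested genes of chromosome 15 against GFP was 0.34, 0.25, 0.32 and 0.37 in ID1 to ID4, that of the 634 of chromosome 12 was 0.17, 0.20, 0.14 and 0.19, and that of the 457 of chromosome 10 was -0.14, -0.16, -0.09 and -0.10. Chromosome 10 carries MKI67, CDK1, KIF11 and MCM10. After subtraction of these medians, PRC1 was left with 0.05, 0.01, -0.09 and 0.03, BUB1B with 0.23, -0.16, 0.43 and 0.18, and FOXM1 with 0.21, -0.05, -0.06 and 0.15. NUSAP1 turned negative, at -0.14, -0.14, -0.21 and -0.07, as did CCNB2, at -0.28, -0.25, -0.22 and -0.11. MKI67 kept -0.07, -0.09, -0.24 and -0.11, CDK1 kept -0.23, -0.31, -0.34 and -0.27, and KIF11 kept -0.21, -0.30, -0.37 and -0.23. Without the members on chromosomes 10, 12 and 15, 20 G2/M members remained, of which 3, 10, 11 and 2 were lowered in ID1 to ID4 and 0 raised in each. Of the 10164 tested genes placed on other chromosomes, 9.86%, 17.1%, 14.2% and 9.96% were lowered, so that the G2/M share in ID4 was that of all genes and in ID1 was near it. The S-phase list has few members there, and of the 22 that remained 6, 14, 13 and 7 were lowered, and 1 (RRM1) was raised in ID4. Smaller shifts were seen on chromosome 4, with medians of -0.14 in ID2 and -0.11 in ID4, on chromosome 8 (-0.13 and -0.09), and on chromosome 9 in ID2 (-0.14), where no member lies. In ID2, subtraction left CCNA2 and MAD2L1 of chromosome 4 with -0.13 and -0.22, and MCM4 and CCNE2 of chromosome 8 with -0.40 and -0.29. The part of the chromosome-wide shift in the changes of single genes was not tested.

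**Figure D5:**
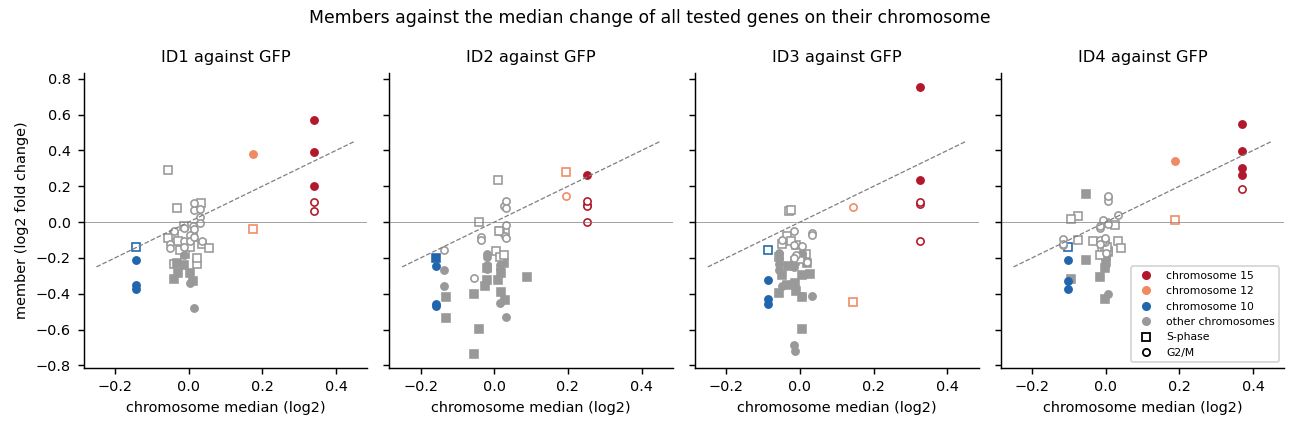
Log2 fold change of each member (y axis) against the median log2 fold change of all tested genes on its chromosome (x axis), in 4 panels for ID1 to ID4 against GFP. The dashed line marks equal values and filled points passed an adjusted p of 0.05. The raised G2/M members lie on chromosomes 15 (median 0.25 to 0.37) and 12, and most other filled points are below the line.

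The ID groups were also compared with each other in the same fit, with values given as the first group minus the second. ID1 and ID4 were the closest pair, with 0 of 53 members called (5 at an unadjusted p under 0.05), 0 also by DESeq2 and by limma, and 2.31% of all tested genes raised and 2.56% lowered. A fit on these groups alone called 2. The smallest adjusted p of a member was 0.143 (CCNB2, -0.20), so that members were not shown to differ or to be alike. ID1 was higher than ID2 in 11 members and lower in 1 (8.9% and 9.74% of all). The 5 S-phase genes among the 11 were MCM4 (0.25), TYMS (0.28), GINS2 (0.50), FEN1 (0.37) and CCNE2 (0.32), the gene that was lower was TK1 (-0.23), and without ID1 replicate 2 the number fell from 12 to 7. MCM4, TYMS, GINS2 and FEN1, with CCNA2, AURKA and BUB1B of the G2/M list, were called without each library in turn. In ID1 minus ID2, the median of the tested genes was 0.17 on chromosome 4, which carries CCNA2 and MAD2L1. It was 0.10 on chromosome 8, which carries MCM4 and CCNE2, and the part of these shifts in the calls was not tested. TK1 was lost without ID1 replicate 2 (adjusted p = 0.0540 in edgeR), and CCNE2 without ID1 replicate 1, 2 or 3 or ID2 replicate 1 or 3 (up to 0.196), by DESeq2 and in a fit on these groups alone. ID1 was higher than ID3 in 8 members and lower in 0 (4.47% and 4.72% of all), 6 of them of the G2/M list and led by PLK1 (0.67), CENPE (0.41) and FOXM1 (0.30). That number was 4 or 5 without any 1 of ID1 replicates 1, 2 and 3 and ID3 replicates 1 and 2.

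ID2 was lower than ID4 in 14 members and higher in 1, TK1 (9.07% and 9.53% of all). S-phase genes made up 7 of the 14, among them FEN1 (-0.39, SE 0.06, adjusted p = 4.51e-05 from edgeR), TYMS (-0.25), MCM4 (-0.22) and CCNE2 (-0.44), and these 4 were called without each library in turn. The 15 calls became 7 without ID2 replicate 1 or ID4 replicate 3, and 9 without ID4 replicate 1 or 2. ID3 was lower than ID4 in 12 members and higher in 0 (5.77% and 5.49% of all), 9 of the 12 in the G2/M list, such as PLK1 (-0.61), HMMR (-0.34) and CENPE (-0.29), and 3 in the S-phase list, with RFC4 (-0.43), RRM1 (-0.24) and CDC6 (-0.29). These 12 calls were the least stable, at 4, 7, 5 and 6 without ID3 replicate 1, ID3 replicate 3, ID4 replicate 1 and ID4 replicate 3, and of the 12 that of RFC4 was kept without each library in turn. Between ID2 and ID3, 6 members were higher in ID2 and 5 lower (7.58% and 7.46% of all). MCM4 (-0.24), GINS2 (-0.39), FEN1 (-0.25), CCNA2 (-0.21) and BUB1B (-0.66) were lower in ID2, and RFC4 (0.31), PRIM1 (0.73), TTK (0.31), CENPE (0.25), CENPF (0.26) and HMMR (0.28) were higher. CCNA2 and CENPE, called in opposite directions, lie on chromosome 4, whose tested genes had a median of -0.18 in ID2 minus ID3. The part of this shift in the CCNA2 call was not tested. The 11 calls became 6 without ID2 replicate 2 and 7 without ID3 replicate 2. Of these 11, MCM4, GINS2, FEN1, BUB1B and CENPF were called without each library in turn. MCM4, GINS2 and FEN1 were thus lower in ID2 than in ID1, ID3 and ID4 in direct tests, although GINS2 against ID4 (adjusted p = 0.0229 in edgeR) was lost without ID2 replicate 1 or ID4 replicate 1, 2 or 3 (up to 0.107). CENPE, CENPF and HMMR of the G2/M list and RFC4 of the S-phase list were lower in ID3 than in ID1, ID2 and ID4. CENPE against ID1 (adjusted p = 0.00208 from edgeR) and CENPF against ID2 (adjusted p = 0.0100) were called without each library in turn. So was RFC4 against ID1 and ID4. The other calls of these genes were lost without 1 or more libraries. RFC4 was lost against ID2 without ID2 replicate 1 or 2 or ID3 replicate 1 or 2 (adjusted p up to 0.177 in edgeR). CENPF against ID1 was lost without ID1 replicate 1 or 2 or ID3 replicate 1, 2 or 3 (adjusted p up to 0.203 in edgeR), and against ID4 without ID3 replicate 3 or ID4 replicate 3 (up to 0.105). CENPE was lost against ID2 without ID2 replicate 1 or 2 or ID3 replicate 1 or 2 (up to 0.127), and against ID4 without ID3 replicate 1 or 2 or ID4 replicate 1 or 3 (up to 0.142).

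Members of wider lists of the same processes were also more often lowered than raised. Of all tested genes 9.73%, 16.7%, 13.5% and 9.51% were lowered in ID1 to ID4 against GFP, as given above. Of 42 other replication genes, 6, 16, 12 and 7 (14.3%, 38.1%, 28.6% and 16.7%) were lowered and 1, 2, 0 and 3 raised, with medians of -0.13, -0.18, -0.19 and -0.09. Without chromosomes 10, 12 and 15, 36 remained, with 6, 14, 11 and 6 lowered and 0, 1, 0 and 2 raised. Of all tested genes placed on the other chromosomes, 9.86%, 17.1%, 14.2% and 9.96% were lowered. GINS4, RNASEH2A and ASF1B were among the 4 lowered in all 4 groups, beside 4.16% of all tested genes. RNASEH2A, which removes ribonucleotides from DNA, changed by -0.41 in ID1 and -0.37 in ID4, and ASF1B, a histone chaperone, by -0.35 in ID1 and -0.51 in ID3. RFC5, another RFC subunit, was lowered by -0.42 in ID2 and -0.37 in ID3, although it lies on chromosome 12. POLD1, the catalytic subunit of polymerase δ, stood apart, at 20.1 ± 1.54 CPM in GFP and 81.0 ± 3.48 in ID4 (SD, n = 3 each), a log2 fold change of 2.01 (SE 0.09). Of 52 other mitosis genes, 10, 21, 23 and 12 (19.2%, 40.4%, 44.2% and 23.1%) were lowered and 2, 2, 0 and 2 raised, with medians of -0.04, -0.15, -0.17 and -0.09. Without chromosomes 10, 12 and 15, 44 remained, with 8, 19, 21 and 10 lowered and 1, 1, 0 and 0 raised. NUF2, INCENP, CKAP2L, TACC3, BUB3 and ZWINT were lowered in all 4 groups, as were 4.16% of all tested genes. BUB3 and ZWINT lie on chromosome 10, whose tested genes had medians of -0.14, -0.16, -0.09 and -0.10 in ID1 to ID4. NDC80, a kinetochore subunit, fell in ID3 from 70.7 to 44.5 CPM (-0.69), and INCENP, a partner of AURKB, changed by -0.26, -0.59, -0.34 and -0.50 in ID1 to ID4.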

How the data were processed

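The libraries were sequenced with the QuantSeq 3′ method from TRIzol total RNA, and the submitters' processing notes name Bowtie2, BWA and hg19. The authors deposited raw read counts per gene beside log2 values that they had normalized between libraries. Counts were tested with edgeR 4.0.16 in R 4.3.3, by quasi-likelihood with TMM factors (0.978 to 1.026) and 1 mean for each group over all 15 libraries, on the 12870 genes in the upper 50% by mean deposited log2 value. Genes were called at a Benjamini-Hochberg adjusted p of 0.05. CPM values are counts over each library's total, without these factors, and depths were 11089044 to 15148979 counts. Levels were not compared between genes. All members could be named, and values by library were given for 20. Most of these were chosen for a small p against GFP, so that they are not an unselected sample of the lists. Members and lists were chosen with earlier results of these data known. Replicate numbers were not used as pairs in the main fit. Deviations of same-numbered libraries correlated at -0.23 to 0.23. Differently numbered libraries were not correlated for comparison, so that pairing was not excluded. Other filters, size factors, DESeq2 1.42.0, limma 3.58.1, a replicate block, fits on the compared groups alone and fits without each library were alternatives. The edgeR step was tested on simulated data.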

Additional observations from a re-analysis of the deposited data

How the results depend on the processing

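Under the rule of the study's methods, a change above 2-fold with an unadjusted p under 0.05, 0 members of either list were called in any comparison. Without members on chromosomes 10, 12 and 15, the G2/M calls against GFP fell to 3 in ID1 and 2 in ID4. Fits on only the groups compared, with fewer libraries behind the error, called 2 members between ID1 and ID4 and 5 between ID2 and ID3. Of all tested genes they called 475 raised and 589 lowered between ID1 and ID4, more than the 297 and 330 of the full fit. Between ID2 and ID3 they called 512 and 561, fewer than 975 and 960. Leaving out ID2 replicate 3 also moved calls between ID1 and ID3, from 575 and 607 to 887 and 882 of all genes. The cause was not tested. Leaving out 1 library at a time gave 4 to 7 S-phase calls in ID4 against GFP, 7 to 12 of all members between ID1 and ID2, 4 to 6 between ID1 and ID3, 6 to 12 between ID2 and ID3, 7 to 16 between ID2 and ID4, and 4 to 11 between ID3 and ID4. It also gave medians of -0.19 to -0.13 for S-phase members in ID1 and -0.087 to -0.038 for G2/M members in ID4. Among single genes with no call, leaving out 1 library turned the sign of CCNE1 in ID3 (-0.017 to 0.16) and ID4 (-0.056 to 0.10), of E2F1 in ID1 (-0.088 to 0.070) and of CCNB1 in ID2 (-0.038 to 0.019), and the cause was not tested. A fit with a replicate block called 5, 15, 13 and 8 S-phase members and 10, 14, 16 and 9 G2/M members in ID1 to ID4 against GFP, and 12, 7, 0, 10, 14 and 12 members in the ID pairs in the order ID1-ID2, ID1-ID3, ID1-ID4, ID2-ID3, ID2-ID4 and ID3-ID4, each within 1.5 times the unblocked number. The ID1 call of PCNA and the ID4 call of MKI67 against GFP and the ID1-ID3 call of CENPF were lost under it, as were those of PRIM1 (ID2-ID3) and NUSAP1 (ID2-ID4).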

Other observations

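Of 24 regulators of the RB, E2F and DREAM system, 23 were tested, and 2, 6, 3 and 2 were lowered and 1, 1, 0 and 2 raised in ID1 to ID4 against GFP, with medians of -0.09, -0.13, -0.09 and -0.04. The lowered shares of 8.70%, 26.1%, 13.04% and 8.70% stood beside 9.73%, 16.7%, 13.5% and 9.51% of all tested genes, and those in ID1, ID3 and ID4 were no higher than these. RBL1 (p107), an RB-family pocket protein, was lowered in all 4 groups, from 53.0 CPM in GFP to 43.2, 39.0, 37.2 and 42.7 (-0.31, -0.43, -0.53 and -0.32). CDC25A, a phosphatase of the G1/S transition, was lowered in ID2 (-0.45), and MYBL2 (B-MYB) in ID3 (-0.26) and ID4. The ID4 call of MYBL2 was lost without GFP replicate 2 or 3 (adjusted p up to 0.0565 in edgeR). The raised genes were E2F3 in ID1 and ID4, E2F4 in ID4 and FBXO5 in ID2. Each of these raised calls was lost without 1 or more libraries.

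Of the 21 S-phase members with a promoter window, 18 held an E2F match, and 4, 11, 11 and 5 of these were lowered in ID1 to ID4 against GFP. The other 3 (FEN1, MCM10 and CCNE1) had 1, 2, 1 and 1 lowered. Of the 17 G2/M members with a CHR match, 6, 7, 8 and 5 were lowered and 3, 1, 2 and 4 raised. Of the 6 without one, 0, 2, 3 and 0 were lowered and 0 raised in each group. Of all tested genes 9.73%, 16.7%, 13.5% and 9.51% were lowered and 12.4%, 18.5%, 15.1% and 12.1% raised. The raised members with a CHR match (CCNB2, BUB1B, NUSAP1 and PRC1) lie on chromosome 15, and MKI67, CDK1 and KIF11 on chromosome 10. Those without one (CCNB1, CCNA2, AURKB, KIF20A, CENPE and PTTG1) lie on chromosomes 4, 5 and 17. Motif and chromosome were not separated here. These counts are descriptions of small groups and were not tested.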
